A study of Drosophila melanogaster with 3 samples.

Results

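The genes described here are the 10 core genes of the Hedgehog signalling pathway of Drosophila melanogaster, out of 13945 protein-coding genes: hh, ptc, smo, ci, cos, fu, Su(fu), Pka-C1, ihog and boi. They were taken by name, and for each one the binding sites of the protein CG11504 inside it or up to 5 kb away were read from the deposited peak lists. ChIP-seq was done in 3 biological replicates on mixed-sex whole embryos, 0 to 18 h old, of 1 transgenic line whose CG11504 carries a C-terminal tag of green fluorescent protein (GFP). Sonicated chromatin of 200 to 800 bp was precipitated with an antibody against GFP. There was no second condition, so every value below is a description with no test. No library without the tag was analysed here, and in whole embryos a site used in few cells cannot be told apart from weak binding in many.

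Hedgehog is a secreted, lipid-modified signal that the posterior cells of each embryonic segment send to their neighbours. Its receptor Patched keeps Smoothened inactive until Hedgehog binds, which it does with the help of the co-receptors Ihog and Boi. In cells without the signal, protein kinase A (PKA) and a complex built on the kinesin-like protein Costal 2 direct the transcription factor Cubitus interruptus (Ci) towards a shortened repressor form. Active Smoothened acts through Costal 2, the kinase Fused and Suppressor of fused, full-length Ci then switches on targets, and one of these is ptc itself.

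The authors' list thresholded on the irreproducible discovery rate (IDR) holds 10650 peaks, each with a summit, its highest point, and a signal value. A rank is a peak's place by signal, with 1 the strongest, either in the IDR list or in the 30000 peaks of a replicate's own list. A peak was called a promoter peak when its summit lay within 500 bp of an annotated start site of the gene, and distal when it lay farther than that from the start sites of all genes. Offsets are counted from the gene's start site in the direction of transcription, so that a negative offset is upstream. CG11504 itself had 0 IDR summits in the gene or within 5 kb.

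Of the 10 genes, 7 had an IDR peak, where 52.6% of all protein-coding genes had one. A promoter peak was found at 5 of the 10, where 22.9% of all genes had one. The 7 were hh, ptc, smo, ci, fu, Pka-C1 and boi, and the 5 were ptc, smo, fu, Pka-C1 and boi. In the 10650 strongest peaks of each replicate, 6, 7 and 7 of the genes had a peak (6.67 ± 0.577, SD, n = 3) and 5, 4 and 5 a promoter peak (4.67 ± 0.577, SD, n = 3), in replicates 1, 2 and 3. The genes with a peak were not the same in each. In replicate 1 ci had none, and in replicate 2 fu had none and cos had 1. When the IDR peaks had to be matched in replicates 2 and 3 (without replicate 1), 3 genes kept a promoter peak, and 3 did so without replicate 3, because replicate 2 had no summit within 100 bp of the promoter peaks of fu and boi.

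The base sequence at 5 of the summits is shown for the strongest distal site, for a pair of promoter sites, for the site in the gene of the ligand and for the one at the gene of the transcription factor. Each is the 101 bases centred on the summit, read 5′ to 3′ on the strand of the gene from the NCBI reference genome in dm6 coordinates. Capitals mark the word TATAAA (the TATA box) or GTATTT (searched under the label Ohler 6), on either strand. A match to GTATTT is to these letters only and not to a full promoter element.
boi peak 1, intron, chrX:2453976-2454076, minus strand: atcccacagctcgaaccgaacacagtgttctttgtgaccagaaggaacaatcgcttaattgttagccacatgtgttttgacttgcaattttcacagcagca
Pka-C1 peak 3, promoter, chr2L:9699355-9699455, minus strand: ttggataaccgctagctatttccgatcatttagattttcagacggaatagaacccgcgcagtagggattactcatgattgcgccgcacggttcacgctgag
fu peak 1, promoter, chrX:18657542-18657642, plus strand: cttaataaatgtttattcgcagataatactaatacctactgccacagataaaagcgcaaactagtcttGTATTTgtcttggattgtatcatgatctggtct
hh peak 1, intron, chr3R:23139695-23139795, minus strand: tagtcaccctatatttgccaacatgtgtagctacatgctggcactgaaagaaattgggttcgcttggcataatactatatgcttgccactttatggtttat
ci peak 1, upstream of ci in an intron of an antisense RNA gene, chr4:60459-60559, minus strand: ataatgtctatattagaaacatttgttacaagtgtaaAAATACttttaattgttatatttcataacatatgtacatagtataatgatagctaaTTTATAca
The share of G and C bases was 43.6% at the boi site, 48.5% at the Pka-C1 promoter, 33.7% at fu, 39.6% at hh and 18.8% at ci. The ci site was the most AT-rich of all 29 summits assigned to the 10 genes.

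The 29 IDR peaks were spread unevenly, with 10 at ptc, 6 at boi, 5 at smo, 4 at Pka-C1, 2 at hh and 1 each at ci and fu. The strongest peaks of replicates 1, 2 and 3 gave 28, 31 and 31 for the 10 genes (30 ± 1.73, SD, n = 3). Only 5 of the 29 (17.2%) were promoter peaks of the gene itself, 6 (20.7%) lay at the promoter of a neighbouring gene and 18 (62.1%) were distal. Within 500 bp of any start site lay 11 of the 29 (37.9%), where 32.6% of all IDR peaks did. Inside the genes lay 14 of the summits, 13 of them in introns of the gene and 0 in a coding exon, while 8 lay upstream and 7 downstream. Leaving out the 6 peaks at neighbours' promoters, an alternative chosen after the data were seen, left 23 peaks and the same count of 7 genes.

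**Figure D1:**
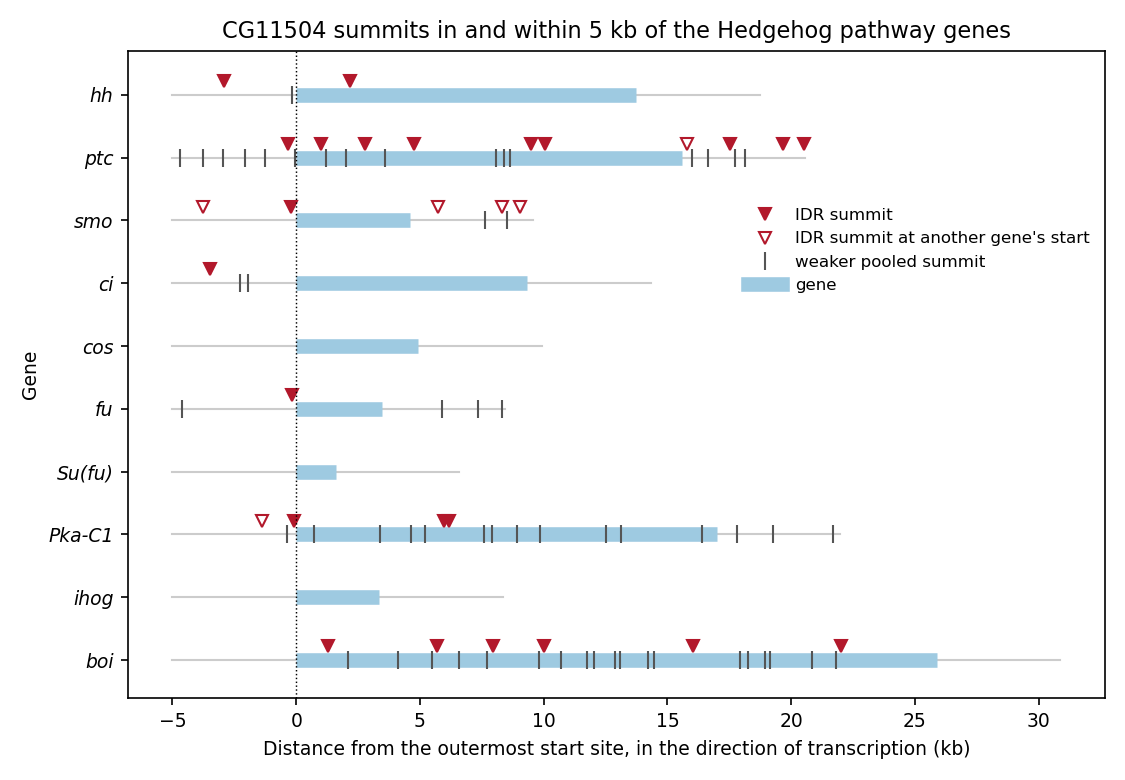
Position of every summit in and within 5 kb of the 10 genes (x axis: distance in kb from the outermost start site in the direction of transcription; y axis: gene; blue bar: the gene; triangles: IDR summits, open where they lie at another gene's start; ticks: weaker summits of the pooled list). The summits of ptc and boi run along the genes, those of smo lie outside it, and cos, Su(fu) and ihog have none.

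The hh gene (chromosome 3R, 23128169 to 23141906, minus strand), which encodes the ligand, had a pair of distal peaks of middling to low strength and no promoter peak. The stronger (3R, 23139547 to 23139869) lay in an intron at an offset of 2161 bp, with rank 4918 in the IDR list and ranks 5369, 4976 and 5607 in replicates 1, 2 and 3. The other (3R, 23144597 to 23145046) lay between genes at -2915 bp, with rank 8572 and ranks 8855, 9203 and 9824. Both were present in every replicate, and each replicate's strongest 10650 peaks held 2 peaks at hh. The start of hh was marked only by a weaker summit of the pooled list at -176 bp, with rank 12161, below the last IDR peak. Of all genes, 33.3% had at least as many IDR peaks as hh.

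The receptor gene ptc (2R, 8649649 to 8665223, plus strand) had 10 IDR peaks, the most of the 10 genes. All 3 replicates counted 10 as well, but in replicates 2 and 3 the weakest IDR peak was not among these 10. Only 1.4% of all genes, and 0.607% of genes 5 to 20 kb long like ptc, had as many. Its promoter peak (2R, 8649209 to 8649456) lay at -322 bp with rank 5612, and with ranks 6078, 5294 and 6796 in replicates 1, 2 and 3. Inside the gene 5 peaks lay in introns. The strongest of these (2R, 8652252 to 8652632), at 2785 bp, had rank 2824 and ranks 3918, 2558 and 2581. The intron peaks at 1006, 4769, 10056 and 9474 bp had ranks 4345, 4732, 6722 and 7520. All of these were matched in the strongest peaks of all 3 replicates.

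The remaining 4 peaks in the window of ptc lay beyond its end, where the next gene on the same strand begins, the long-chain acyl-CoA synthetase gene Acsl. Among them was the strongest (2R, 8669047 to 8669586), in an intron of Acsl 4079 bp past the end of ptc. It had rank 844, and ranks 969, 723 and 960 in replicates 1, 2 and 3. The next (2R, 8666971 to 8667310), also in an intron of Acsl, had rank 2530 and ranks 2864, 2526 and 2677. Another lay 390 bp from a start of Acsl with rank 8751. The last, with rank 10232, lay 4936 bp past the gene, just inside the 5 kb limit, and replicates 2 and 3 gave it ranks 14523 and 12029. With a window of 2 kb the strongest peak assigned to ptc was the one with rank 2530. These sites are nearer to starts of Acsl than to that of ptc, and the lists do not say which gene they belong to. The intron peaks of ptc were also nearer to a start of another gene. That gene was lncRNA:CR44281 for those at 1006, 2785 and 4769 bp, and Acsl for those at 9474 and 10056 bp.

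The co-receptor genes ihog and boi encode related immunoglobulin and fibronectin domain proteins that stand in for each other in Hedgehog reception. The genes differed in these lists and also in length. The boi gene (X, 2444167 to 2470043, minus strand) had 6 IDR peaks, all inside it, and replicates 1, 2 and 3 counted 6, 5 and 8. Its strongest (X, 2453022 to 2454691) covered 1670 bp of intron 16017 bp from the outermost start and had rank 364, with ranks 322, 431 and 378. Of all IDR peaks, 2.05% were at least as wide, and 5.41% of all genes had a peak as strong in their window. A peak in an intron 1277 bp from the outermost start (X, 2468601 to 2468954) had rank 2682 and ranks 3403, 2907 and 2322. The other intron peaks had ranks 7680, 9541 and 10427.

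The promoter peak of boi (X, 2447962 to 2448123), rank 6616, lay at -148 bp from its internal start, but nearer to a start of z, the zeste transcription factor gene on the other strand, 84 bp away in its 5' UTR. Replicates 1 and 3 gave it ranks 8878 and 5494, and the nearest summit of replicate 2 was 104 bp off, just past the limit of 100 bp. Counts at boi read against length are ordinary: 38.2% of genes over 20 kb had at least as many peaks, and 86.7% of such genes had at least 1.

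The ihog gene (2L, 6945464 to 6948808, minus strand) had no peak in the IDR list, in the pooled list or in any replicate's list. Its nearest pooled summit was 15619 bp away at Coprox with rank 24218, and the nearest IDR summit 18970 bp away with rank 6510. Replicate 1 placed its nearest summit 15430 bp away with rank 1960, replicate 2 at 18969 bp with rank 5747, and replicate 3 at 15605 bp with rank 13511. Of all protein-coding genes, 39.9% had no pooled summit in their window. The ihog gene is under 5 kb long, a class in which 46.7% of genes had an IDR peak.

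The smo gene (2L, 277582 to 282167, plus strand), which encodes the membrane protein that carries the signal into the cell, had the strongest peak of the 10 genes. The peak (2L, 276934 to 277832) covered 899 bp with its summit at -225 bp, and its ranks were 63 in the IDR list and 48, 72 and 81 in replicates 1, 2 and 3. Only 44 genes (0.316%), smo included, had a promoter peak at least as strong, and 6.19% of IDR peaks were as wide. The summits of the 3 replicates lay 3, 2 and 0 bp from that of the IDR list. The region is shared with CG17078, which starts 145 bp from the summit on the other strand and has a further transcript whose 5' UTR covers the site, so the peak cannot be told apart as belonging to either gene.

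The other 4 peaks in the window of smo all lay at promoters of its close neighbours. Those near CG3625 had ranks 3243 and 4764, that between CG11555 and mbm had rank 5511, and that at CG11601, 34 bp from its start, had rank 7535. All 4 were matched in the strongest peaks of the 3 replicates. Inside smo itself no IDR summit was found. For genes under 5 kb long, of which 46.7% had an IDR peak, 2.88% had as many as the 5 of smo.

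**Figure D2:**
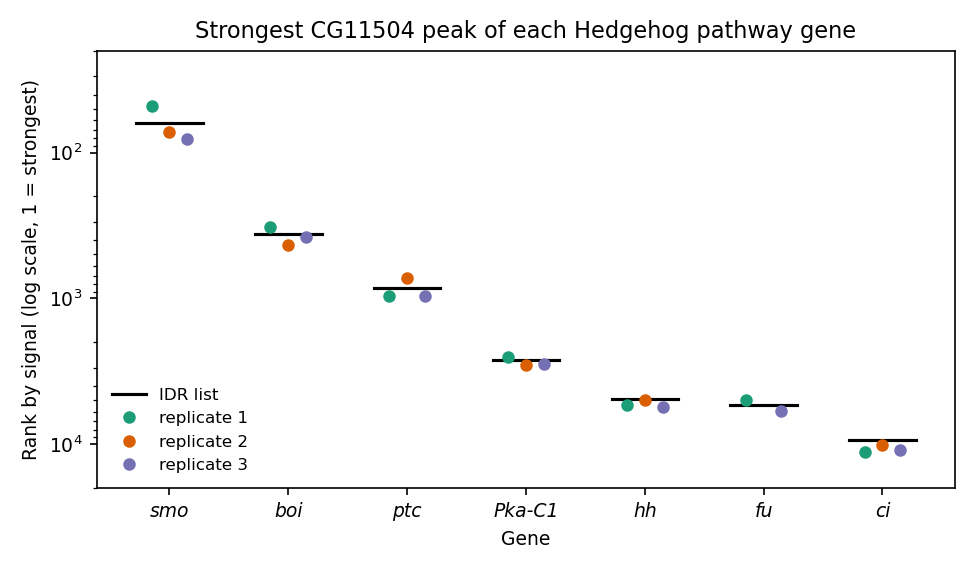
Rank of the strongest IDR peak of the 7 genes that had one (y axis: rank by signal on a log scale, 1 the strongest; x axis: gene; bar: IDR list; points: the matched peak in replicates 1, 2 and 3, in their whole lists). The order smo, boi, ptc, Pka-C1 holds in each replicate, with smo between 48 and 81, and fu has no point for replicate 2.

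Of the genes of the Ci complex in the cytoplasm, cos, fu and Su(fu), 1 of 3 had an IDR peak. All 3 are under 5 kb long, a class in which 46.7% of genes had one. The cos gene (2R, 7382176 to 7387115, minus strand), which encodes Costal 2, had no IDR or pooled peak. It sits in a stretch of 147498 bp without an IDR summit, and 4.57% of genes lie in one as long. The nearest IDR summit was 70071 bp away with rank 2207. The nearest pooled summit was 8192 bp past the gene, in an intron of Dscam1, with rank 14693. Replicates 2 and 3 had a summit in another place, 4895 and 4932 bp from the gene and so just inside the window, with ranks 7282 and 10699, while the nearest of replicate 1 was 5820 bp away with rank 20667.

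The fu gene (X, 18657755 to 18661204, plus strand) encodes the kinase Fused and had 1 IDR peak (X, 18657484 to 18657736), at -163 bp and also within 500 bp of the start of CG6659. Its rank was 5410, and replicates 1 and 3 ranked it 5005 and 5963. Replicate 2 had no summit there, and its closest one was 9616 bp away. Such a gap was rare: 0.178% of IDR peaks had no summit within 5 kb in the whole list of replicate 2.

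Su(fu) (3R, 12689873 to 12691468, minus strand), the gene of an inhibitor that binds Ci, had no summit within 5 kb in any list. Its nearest summits lay in Men, at 26093 bp with rank 17774 in the pooled list and at 26166, 26874 and 26113 bp with ranks 13267, 3218 and 24635 in the lists of replicates 1, 2 and 3. An IDR summit was closest at 26875 bp, with rank 3111. Stretches without an IDR summit as long as that around Su(fu), 64276 bp, hold 21.0% of genes, and as long as that around ihog, 47365 bp, 30.7%.

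Pka-C1 (2L, 9682315 to 9699297, minus strand), the main catalytic subunit of PKA, had 4 IDR peaks, and replicates 1, 2 and 3 counted 4, 5 and 4. The strongest (2L, 9692959 to 9693314) lay in an intron at 6172 bp, with rank 2647 and ranks 2526, 2888 and 2839. The promoter peak (2L, 9699227 to 9699490), shown above, lay at -108 bp and within 500 bp of the start of hoip on the other strand, with rank 5257 and ranks 4589, 5138 and 6723. Between them in strength, a peak with rank 3433 lay 116 bp from the start of pelo, at -1397 bp from Pka-C1. The weakest, in the same intron 205 bp from the strongest, had rank 9312 but varied, with rank 18901 in replicate 1 and 7561 and 6801 in replicates 2 and 3. Of genes 5 to 20 kb long, 63.9% had an IDR peak and 19.6% at least 4.

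The ci gene (chromosome 4, 47710 to 57041, minus strand) had the lowest-placed best peak of the 7. Its only IDR peak (4, 60285 to 60734) lay at -3468 bp, in an intron of the antisense RNA gene asRNA:CR43957, with rank 9416. Replicates 1, 2 and 3 ranked it 11397, 10125 and 10952, so that it was among the strongest 10650 only in replicate 2. Replicate 3 had a stronger summit elsewhere in the window, with rank 8511. With a window of 2 kb, ci had no IDR peak. Chromosome 4 is small and largely of heterochromatin-like character. It held 9 IDR peaks in all, and 13.8% of its protein-coding genes had one in the gene or within 5 kb.

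**Figure D3:**
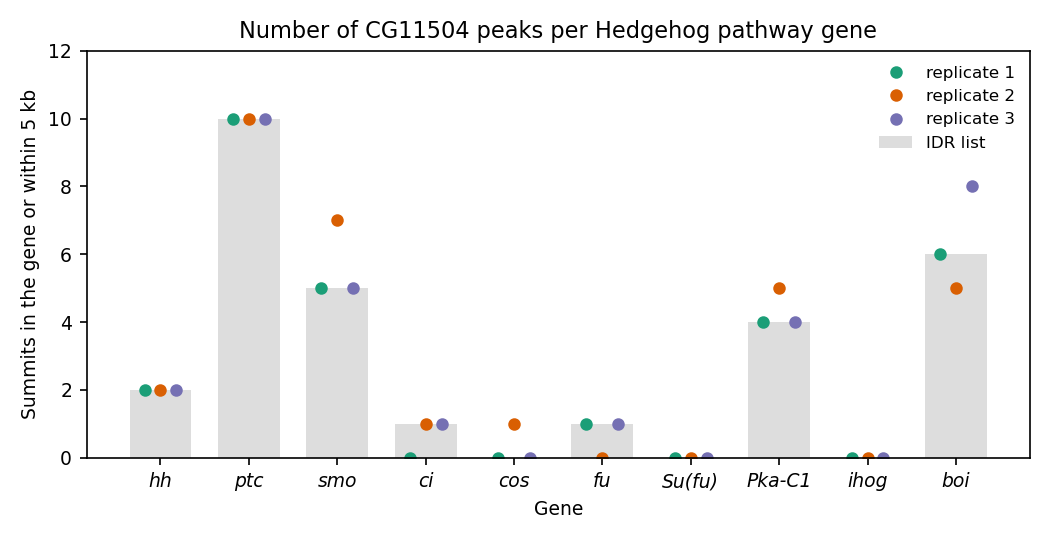
Number of summits in each gene or within 5 kb (y axis: count; x axis: gene; grey bar: IDR list; points: the 10650 strongest peaks of replicates 1, 2 and 3). The counts of the replicates are equal at ptc (10 each, not all the same peaks) and hh (2 each), and differ by up to 3 at boi.

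Among the 29 peaks, 22 (75.9%) were matched within 100 bp in the strongest peaks of all 3 replicates, where 72.2% of all IDR peaks were. Replicates 1, 2 and 3 matched 26, 24 and 27 of them. In the replicates' whole lists 85 of 87 possible matches were found, at a median summit distance of 11 bp, and the missing pair were the promoter peaks of fu and boi in replicate 2. The ranks of these peaks ran in parallel, with Spearman's rho across peaks of 0.922 between replicates 1 and 2 (n = 27 peaks), 0.886 between 1 and 3 (n = 29) and 0.932 between 2 and 3 (n = 27). Peaks are not independent replicates, the 3 lists share a control, and the IDR list was made from them. The median rank of the 29 was 5410. Of them 3 (10.3%) were among the first 1000, as 9.39% of all IDR peaks are by definition, and they were those of smo, boi and ptc with ranks 63, 364 and 844.

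The 5 promoter peaks lay at offsets of -322, -225, -163, -108 and -148 bp from a start of ptc, smo, fu, Pka-C1 and boi. For boi that start is an internal one, so its peak lies inside the gene. Of all promoter IDR peaks, 79.7% lay upstream of the nearest start of any gene, which for the smo and boi peaks is that of CG17078 or z. The 5 offsets are counted from a start of the listed gene, so they are not on the same measure as that share. In 4 of the 5, all but ptc, the summit was also within 500 bp of a start of another gene. Of promoter IDR peaks, 28.6% were within reach of starts of more than 1 gene. That share is over peaks, while the 5 were reached by gene, and a shared peak can be reached from more than 1 gene. These values are therefore not on the same measure either. Summits of the 10 genes had 35.1% ± 8.1 G and C bases (SD over 29 summits, range 18.8% to 49.5%), beside 33.3% ± 10.4 over all IDR summits.

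Words were searched on both strands in the 101 bases at each summit. TATAAA was found at 8 of 29 summits (27.6%; 24.1% of all IDR summits) and GTATTT at 8 (27.6%; 15.5%). Of the summits 4 held both, at the weaker peak of hh, at ci and at a pair assigned to ptc. The weaker of that pair lies at the promoter of Acsl. The homeodomain word TAATTA was found at 2 (6.9%; 10.8%), both assigned to ptc. The stronger of these lies in an intron of Acsl and the weaker in an intron of ptc. The words GGTCACAC of M1BP, TATCGATA of the replication-related element, GAGAGAG of the GAGA factor and CAGGTAG of Zelda were at 0 of the 29 (0.92%, 0.93%, 1.33% and 0.394% of all IDR summits). These shares come from 29 windows and were not tested.

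The word TGGGTGGTC, which Ci and its vertebrate relatives the Gli proteins bind, was at 0 of the 29 summits, also when 1 mismatch was allowed (0.00939% and 0.657% of all IDR summits). In the whole windows of the genes, a search added after the data were seen, the exact word occurred 6 times, at ptc, hh and smo, and 11.6% of protein-coding genes had it in their window (14.4% of genes 5 to 20 kb long and 8.66% of those under 5 kb). At ptc it lay at -754, -697 and -631 bp, 309 to 432 bp upstream of the summit of the promoter peak, and once at 7605 bp. Upstream of ptc is where Ci is known to act in the fly. At hh it lay in the intron 275 bp from the summit of the stronger peak, and at smo in the gene at 383 bp, 608 bp from the summit with rank 63. None of the 6 lay inside an IDR peak region. The 29 bases around the word at hh and smo, on the strand of the gene and with the word or its reverse complement in capitals, were as follows.
hh, chr3R:23139456-23139484, minus strand: gcggtgggatGACCACCCAgttggtgggg
smo, chr2L:277951-277979, plus strand: cttatgcctgTGGGTGGTCgcagacgcat
A match is a run of letters and not a site shown to be bound.

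Another 32 genes of the pathway were counted in 7 lists by role. Of them 23 (71.9%) had an IDR peak and 15 (46.9%) a promoter peak, beside 52.6% and 22.9% of all genes. The strongest peaks of replicates 1, 2 and 3 gave 22, 23 and 22 with a peak (22.3 ± 0.577, SD, n = 3). Length differed along with this: all 14 genes over 20 kb had a peak, 4 of 10 at 5 to 20 kb and 5 of 8 under 5 kb. Over all protein-coding genes, the shares in these classes were 86.7%, 63.9% and 46.7%. The part of length in the counts was not tested beyond these classes. Of the 10 core genes, 1 of 1, 4 of 4 and 2 of 5 had a peak in the same order of length classes.

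Upstream of the receptor, neither gene of ligand release had an IDR peak, namely rasp, whose product attaches a lipid to Hedgehog, and disp, needed for its secretion. Of the genes of ligand spread 5 of 6 had one, where 52.6% of all genes did. Among these 6, 3 are over 20 kb long, a class in which 86.7% of genes had an IDR peak. The glypican genes dally and dlp, whose products carry Hedgehog across tissue, had 11 peaks each, the strongest with ranks 868 and 873 in introns. Both are over 20 kb long, and 14.5% of such genes had at least as many peaks. At botv, an enzyme gene of heparan sulfate synthesis, there were 5 peaks, the strongest with rank 1438 near the start of CG15111. No IDR peak was found at shf, which encodes a secreted protein that stabilises Hedgehog.

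All 4 other PKA subunit genes had an IDR peak but 0 a promoter peak. In the strongest peaks of each replicate the same 3 of them had a peak. Of the 4 genes, 2 are over 20 kb long, a class in which 86.7% of genes had an IDR peak. The strongest peak was at Pka-C3 (6 peaks, rank 1394, 318 bp from the start of sff), followed by the regulatory subunit genes Pka-R2 (rank 3389) and Pka-R1 (rank 3611). The 4 genes of other kinases that act on Ci or Smoothened, 3 of them over 20 kb long, all had a peak. The strongest peaks of 3 of these genes were stronger than the peak of rank 844 at ptc. The peak of rank 108 assigned to Gprk2, a Smoothened kinase gene, lay 79 bp from the start of PNPase. Those of gish, a casein kinase gene, and sgg, the glycogen synthase kinase 3 gene, lay at their own promoters, at -153 bp with rank 164 and at -189 bp with rank 465. Replicates 1, 2 and 3 ranked the gish peak 205, 145 and 162.

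Of the 6 genes of Ci and Smoothened degradation, 3 had an IDR peak, beside 52.6% of all genes. At rdx, whose product directs Ci to degradation and which is itself a Hedgehog target, 31 IDR peaks were found, and only 3 genes (0.0215%), rdx included, had as many. Replicates 1, 2 and 3 counted 29, 34 and 27 there. The strongest (3R, 13975973 to 13978693) lay in an intron of rdx with rank 211 and ranks 207, 269 and 204. The strongest peaks assigned to the ubiquitin ligase genes SkpA and Cul3 had ranks 571 and 581, the first 203 bp from the start of Hmt4-20 and the second between genes, 1168 bp from the start of UK114. No IDR peak was found at the ligase genes Cul1 and slmb. The rdx gene is 64997 bp long.

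**Figure D4:**
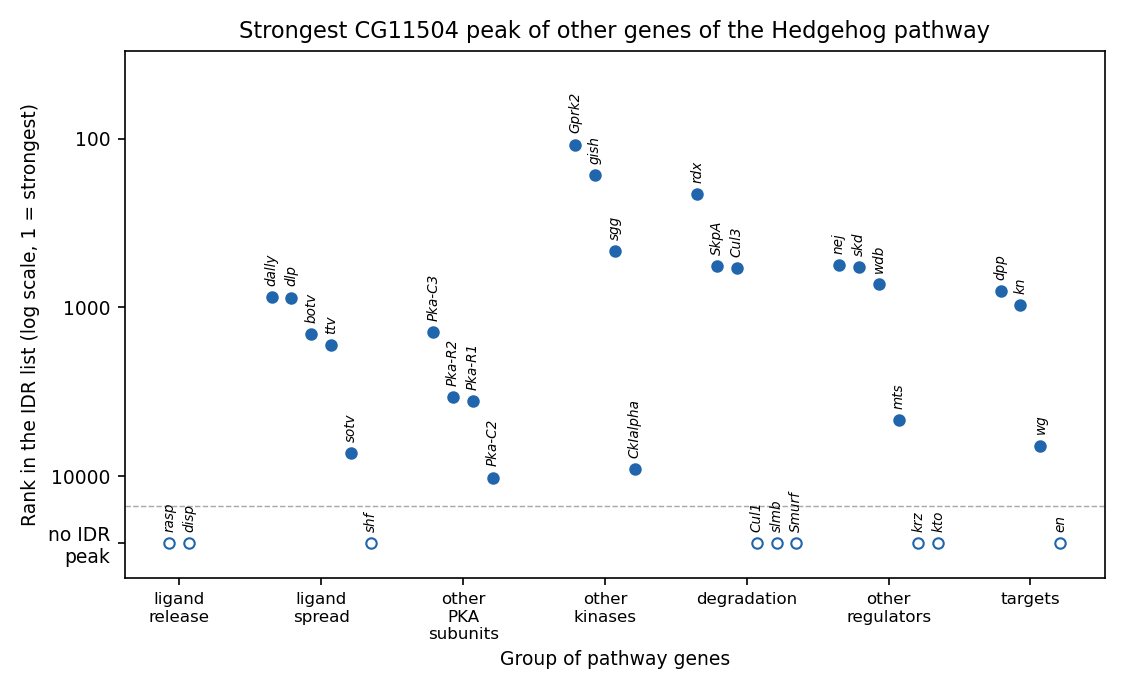
Rank of the strongest IDR peak of the 32 other pathway genes, in their 7 lists (y axis: rank on a log scale, 1 the strongest; x axis: list; open points: genes with no IDR peak). Gprk2, gish and rdx stand highest, with ranks 108, 164 and 211, and both genes of ligand release are without a peak.

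Among other regulators 4 of 6 had an IDR peak, and 4, 5 and 4 had one in the strongest peaks of replicates 1, 2 and 3. The share over all genes was 52.6%, and over genes longer than 20 kb, as 3 of these 6 are, it was 86.7%. The strongest assigned to nej, the gene of the CBP coactivator that Ci recruits, had rank 562 and lay between genes at -686 bp, 437 bp from the start of lncRNA:CR42657. That assigned to skd of the Mediator kinase module had rank 572 and lay at -4143 bp, 217 bp from the start of CG10584. At wdb, a phosphatase 2A subunit gene, the strongest lay in an intron with rank 722. The arrestin gene krz and the second Mediator kinase module gene kto had no IDR peak, but 8 and 1 weaker summits of the pooled list, and replicate 2 had 1 of its strongest peaks at krz. Of 4 known targets, 2 of them over 20 kb long, 3 had an IDR peak. At the signalling gene dpp the strongest lay in an intron with rank 797, at the transcription factor gene kn in an intron with rank 962, and at the Wnt gene wg at -162 bp with rank 6591. The engrailed gene en, which marks the cells that send Hedgehog, had no summit in the pooled list or in the strongest peaks of the replicates in its window.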

How the data were processed

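Peak lists in dm6 coordinates were deposited by the authors for each of the 3 replicates (biological, per the labels), for the replicates pooled, and an IDR list. Per the text files deposited beside the lists, the replicate and pooled peaks were called against 1 control alignment and the IDR list was made from them. No aligner, caller, version or read filter is given in the sources used here. Each peak has the signal value of the authors' deposited list, whose scale is not stated, so it was read only as a rank within its own list, and the deposited summit offset, another kind of value, was turned into a position counted from 1. IDR peaks keep their pooled signal. Replicate and pooled lists end at 30000 peaks, and without a known read depth no counting interval could be given.

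Genes came from Ensembl release 115 (BDGP6.54) on 6 chromosome arms. All 10 genes had the same coordinates in RefSeq. A summit was assigned to every gene it lay in or within 5 kb of. Replicates were compared by their 10650 strongest peaks, with matches within 100 bp. Named genes were the 10, their neighbours at IDR summits, and in each role list the 3 with the strongest peaks and up to 2 without one. The genes and lists were chosen with earlier results of these data known. The assignment was tested on simulated peaks. Python 3.11.15, numpy 2.4.6, pandas 2.3.3, scipy 1.17.1 and matplotlib 3.10.9 were used.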

Additional observations from a re-analysis of the deposited data

How the results depend on the processing

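The count of genes with an IDR peak stayed between 5 and 7 over the alternatives run, from 5 above the median signal to 7 in the pooled list, with 5 to 6 when 1 replicate was left out. Genes with a promoter peak numbered 2 above the median signal and 3 to 5 with a replicate left out. Assigned peaks were 14 above the median signal, 88 in the pooled list and 22 to 25 with a replicate left out. The promoter share of the assigned peaks was 22.7% with a window of 2 kb, 14.7% with 10 kb, 13.8% with a promoter window of 250 bp, 14.3% above the median signal, 10.2% in the pooled list and 13% to 20% with a replicate left out. The share of all genes with a peak was 39.1% with 2 kb, 68.2% with 10 kb, 42.8% above the median signal, 60.1% in the pooled list and 48% to 48.8% with a replicate left out. Fewer or more peaks enter in these settings by construction. Matches in all replicates were 58.6% within 50 bp, 82.8% within 200 bp, 93.1% in the whole lists and 75.9% to 86.2% with a replicate left out. Of 34 other values, 33 moved by no more than 1.5 times or not at all. The strongest peak of ptc became that of rank 2530 with 2 kb, a window in which ci has no peak and so no value. No paired analysis was possible because there is only 1 group. The unknown depth limits what an empty window shows: a peak below the authors' thresholds would not be listed.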

Other observations

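Below the IDR list, the pooled list held 59 further summits in the windows of 7 of the 10 genes, given here as values. Most lay at the genes that also had many IDR peaks, with 19 at boi, 16 at ptc and 15 at Pka-C1, and the rest were 4 at fu, 2 each at smo and ci and 1 at hh. The strongest at each of 5 genes had ranks of 10729 at smo, 11718 at boi, 11940 at ptc, 12161 at hh and 12391 at Pka-C1, the last at -371 bp. At the start of ptc itself, at -41 bp, a weak summit had rank 27505. The windows of cos, Su(fu) and ihog held 0 pooled summits.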
